A study of Gymnopus androsaceus with 9 samples.

Results

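The comparison described here sets mycelium of Gymnopus androsaceus grown for 10 months on pine needle litter against mycelium grown for 5 months on the same litter. It uses 6 of the 9 libraries of the study, 3 biological replicates at 10 months and 3 at 5 months, chosen by harvest alone. The other 3 libraries are from 2 months of growth and appear only as context and in the shared estimate of spread. All groups share one culture scheme: Scots pine (Pinus sylvestris) needles, 11 g per vessel with 85 g of sand, were irradiated, inoculated with a needle that the fungus had already colonised, given 20 ml of 100 mM NH4Cl, sealed and kept at 20 °C. No genotype or drug distinguishes the harvests, so time in the sealed vessel is the compared variable, and every vessel had the nitrogen addition. At each harvest 4 vessels were taken and 3 libraries are given here, and total RNA came from 800 mg of ground material per extraction.

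Gymnopus androsaceus, the horsehair fungus, is a basidiomycete that colonises fallen conifer needles and spreads by thin black cords. Litter fungi of this kind live by secreting enzymes: hydrolases release sugars from cellulose and hemicellulose, and peroxidases and other oxidases attack lignin and phenolic compounds. As litter ages in contact with one fungus, easily used carbon becomes scarcer and what remains is richer in resistant polymers, while the mycelium itself ages and recycles its own material. The comparison of 10 with 5 months asks how the pool of transcripts differed over that later phase. The deposited tables give JGI protein IDs with no product names, so the role of each gene cannot be given here, the mycelium could not be checked against marker genes, and at most a pair of IDs is listed per direction of change.

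The 10-month libraries held 60591632 to 96533143 reads unique to one gene and the 5-month libraries 29885380 to 78159105. Of 29375 listed genes, 4918 had no unique read in any of the 6 libraries, and 20168 passed the low-count filter and were tested. Libraries of one harvest correlated at a Spearman rho of 0.981 to 0.992 across tested genes (6 pairs), and libraries of different harvests at 0.951 to 0.969 (9 pairs), which describes genes and is no test over samples. The biological coefficient of variation, the spread between replicates beyond counting error, was 21.7% at 10 months and 23.3% at 5 months. It was 29.0% in the 2-month libraries, which enter the shared estimate of spread. One feature set libraries of the same harvest apart, namely 6 abundant genes whose levels move together. They took 17.2% and 31.9% of unique reads in 10-month replicates 1 and 2, but 1.24% in 10-month replicate 3. Their share was 1.39% to 2.30% in the 5-month libraries. In 2-month replicates 1, 2 and 3 it was 6.84%, 24.9% and 3.35%, so high shares were not confined to 10 months. The concentration of reads is given with and without these 6 genes. Median fold changes of the called genes are also given without the libraries rich in them. Most other results include those libraries.

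At 10 months fewer genes held a larger part of the transcript pool. The most read genes that together made up 50% of unique reads numbered 391, 97 and 619 in 10-month replicates 1, 2 and 3, against 823, 832 and 796 in the 5-month replicates. The groups did not overlap, with means of 369 ± 262 genes at 10 months and 817 ± 18.7 genes at 5 months (SD, n = 3 each). A two-sided exact permutation test gave p = 0.1, the smallest that 3 against 3 libraries allow, and 0.138 after Benjamini-Hochberg adjustment over the 11 pool measures taken, all tested two-sided. The difference was smaller without the 6 abundant genes, when the numbers were 719, 519 and 637 at 10 months and 850, 861 and 846 at 5 months. The means then differed by -227 genes in place of -448, again with no overlap and p = 0.1 by the exact permutation test.

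The same shape was seen further down the ranking. The 1000 most read genes of each library took 63.4%, 73.3% and 58.1% of unique reads in 10-month replicates 1, 2 and 3, and 53.5%, 53.3% and 53.9% in the 5-month replicates. With the 6 genes left out these shares were 55.9%, 60.9% and 57.7% at 10 months and 52.9%, 52.7% and 53.0% at 5 months. Replicate 3 of 10 months, which lacked the surge of the 6 genes, thus lay above all 5-month libraries by this measure. The 10 most read genes without those 6 did overlap between harvests, at 6.31%, 8.27% and 7.28% at 10 months and 6.38%, 6.41% and 5.90% at 5 months (exact permutation p = 0.3).

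**Figure D1:**
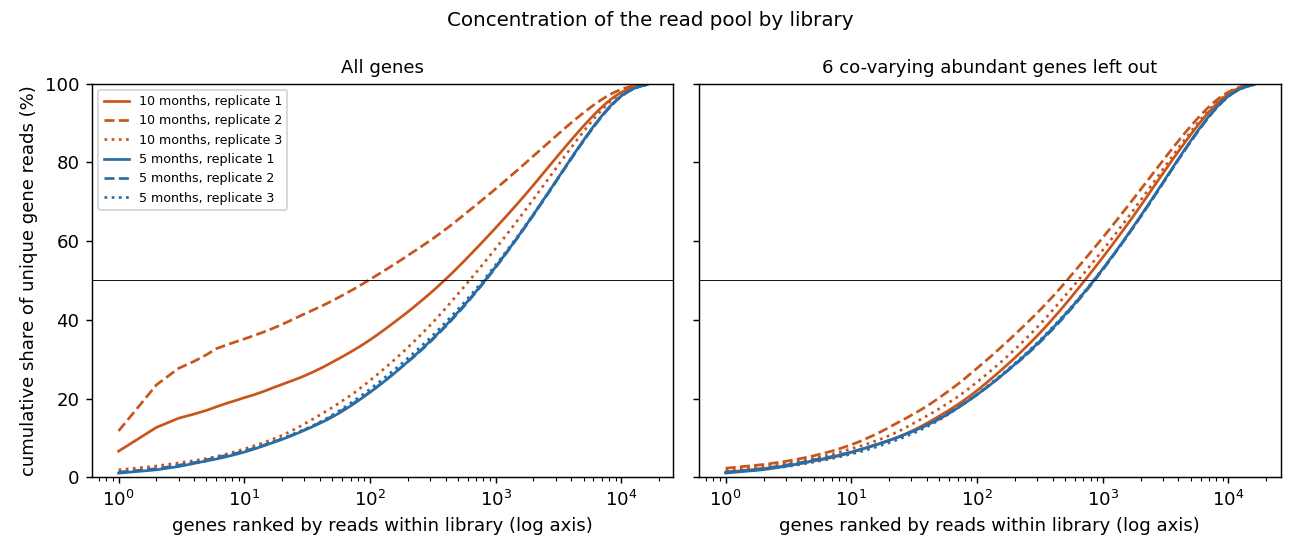
Cumulative share of unique gene reads (y axis, percent) against genes ranked by reads within each library (x axis, log scale), for all genes (left) and without the 6 co-varying abundant genes (right); orange lines are 10-month and blue lines 5-month replicates, and the horizontal line marks 50%. The 10-month lines cross 50% at 391, 97 and 619 genes and the 5-month lines at 796 to 832.

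Fewer transcripts reached a moderate count at 10 months when depth was made equal. After each library was thinned to 21939600 reads, 17613, 16687 and 17807 genes had at least 10 reads in 10-month replicates 1, 2 and 3, against 18489, 18595 and 18355 genes in the 5-month replicates (exact permutation p = 0.1). Counting genes with any read gave 21065, 20433 and 21001 at 10 months and 21498, 21588 and 20963 at 5 months, so there the groups overlapped (exact permutation p = 0.3). The share taken by the most read genes differed between the harvests in these same libraries, and its part in the number of genes reaching 10 reads was not tested.

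Between the harvests 3657 of the 20168 tested genes changed (18.1%), with 2005 genes higher at 10 months (9.94%) and 1652 genes lower (8.19%). The test was edgeR's quasi-likelihood F test, and a call needed an adjusted p (Benjamini-Hochberg) under 0.05. Values are relative to TMM scaling, which assumes that most genes do not differ, and in bulk RNA fewer hyphae of a kind and less RNA per hypha cannot be told apart. Among the 2005 higher genes, 1995 had no overlap between the 3 and 3 libraries, as had 1640 of the 1652 lower genes, whereas 41.8% of all tested genes had none (20.9% in each direction). The same levels decided the calls and the overlap, so these counts only describe the called genes. Most changes were moderate: the middle 50% of the higher genes had log2 fold changes of 0.76 to 1.48, and that of the lower genes -1.63 to -0.82. Changes under 1.5-fold numbered 131 among the higher genes (6.53%) and 66 among the lower genes (4.00%), while 247 genes in each direction changed at least 4-fold.

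The balance of directions depended on scaling. Higher genes made up 54.8% of calls with TMM, 41.1% with upper-quartile scaling and 9.56% with library totals alone, as the median log2 fold change of all tested genes moved from -0.03 to -0.15 and -0.57. The number of changed genes was also lower in each fit that lacked a compared library. It was 2980, 2063 and 2167 without 10-month replicates 1, 2 and 3. Without 5-month replicates 1, 2 and 3 it was 2209, 2072 and 2847. Fits that lacked 2-month replicate 1, 2 or 3 called more genes, at 3866, 3916 and 3982. With only the 6 compared libraries in the fit, 4487 genes were called. Of the calls in each fit lacking a compared library, 91.5% to 98.3% were calls of the full fit with the same direction.

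**Figure D2:**
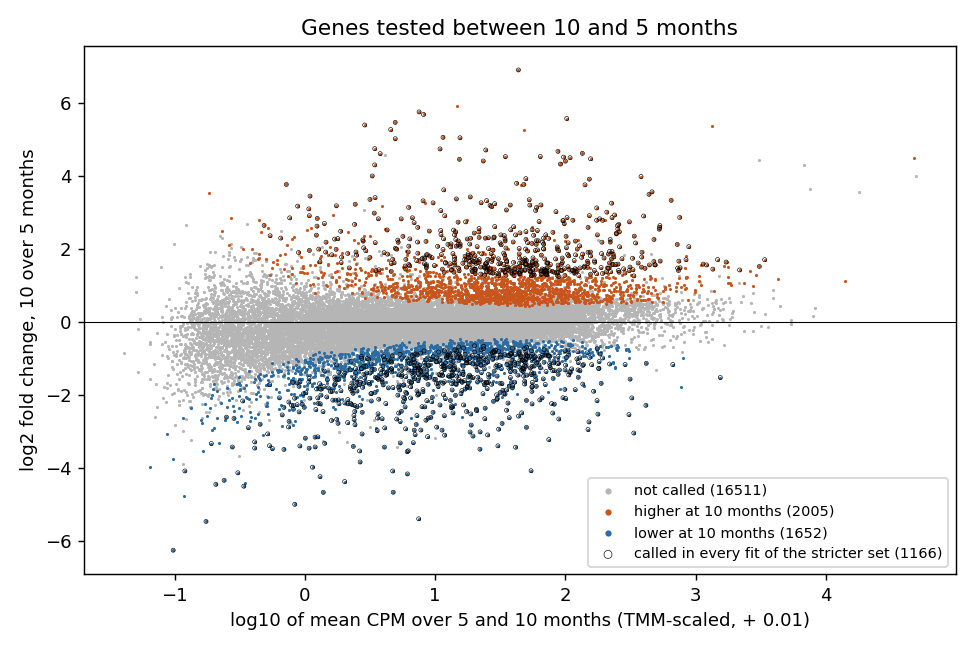
Log2 fold change of 10 over 5 months (y axis) against the log10 of mean TMM-scaled CPM of both harvests (x axis) for the 20168 tested genes. Orange points are the 2005 genes higher and blue points the 1652 genes lower at 10 months, grey points were not called, and black circles mark the 1166 genes called in every fit of the stricter set.

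A stricter set was formed of genes called in the same direction with TMM, with each of the 3 other scalings, on total gene reads and without each of the 6 compared libraries in turn. It held 1166 genes (5.78% of those tested), 517 higher (2.56%) and 649 lower (3.22%) at 10 months, so that lower genes were in the majority here, unlike in the full list. The median log2 fold change was 1.81 in its higher genes and -1.52 in its lower genes. All 517 higher genes, but 545 of the 649 lower ones (84.0%), changed at least 2-fold. The smallest rise in the stricter set was a log2 fold change of 1.25 and the smallest fall -0.65. Library totals alone, one of the scalings demanded, placed the median of all tested genes at -0.57, so a rise had to be larger than a fall to enter this set.

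**Figure D3:**
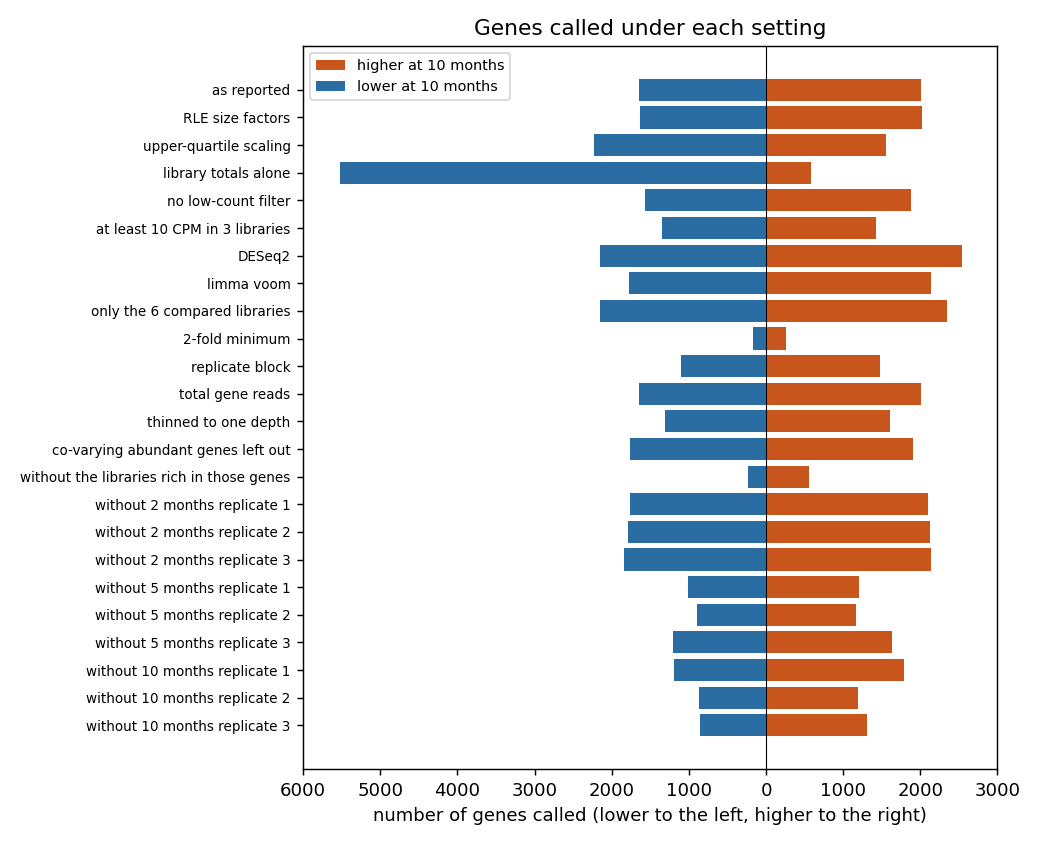
Number of genes called at an adjusted p under 0.05 (x axis, genes lower at 10 months to the left and higher to the right) under each setting (y axis). Library totals alone gave 584 higher and 5526 lower genes, while RLE size factors gave 2020 and 1635, close to the 2005 and 1652 reported.

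Leaving the 6 genes out of the counts gave 1900 higher and 1761 lower genes, and 97.1% of the original calls were made again in the same direction. CPM values here are unique reads scaled to library size with the TMM factors. Measured against the 5-month mean on log2(CPM + 0.5), the higher genes had a median difference of 0.81, 1.12 and 0.92 in 10-month replicates 1, 2 and 3, and the lower genes -0.86, -1.05 and -0.92. Replicate 3, poor in the 6 genes, lay between the other two in both lists. All 3 libraries had a part in choosing these genes. Without the libraries in which the 6 genes took over 10% of reads (10-month replicates 1 and 2 and 2-month replicate 2), the median log2 fold change was 0.94 for the 2005 higher and -1.13 for the 1652 lower genes. The signs were all but fixed by the choice of these genes, since replicate 3 already lay beyond every 5-month library in nearly all of them. That fit rests on replicate 3 as the lone 10-month library, assumed to vary like the other groups, and it called 557 higher and 240 lower genes.

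ID 990777 had the largest rise that held in the stricter set. It stood at 101, 97.0 and 61.5 CPM in 10-month replicates 1, 2 and 3, against 0.439, 1.08 and 0.550 CPM in the 5-month replicates. Every 10-month library was far above every 5-month library, with a log2 fold change of 6.91 ± 0.41 (SE; edgeR, adjusted p = 3.0e-06). The 5-month level rests on 32, 101 and 19 reads. At 2 months the mean was similarly low, 0.522 ± 0.263 CPM (SD, n = 3). It was called under all 23 alternatives run, with log2 fold changes of 6.34 to 7.47. Entry to the stricter set already required the call in 10 of these, for this gene as for the other named changes. Its transcript is 669 bases long by the length implied in the deposited RPKM.

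ID 1008095 had the largest fall in the stricter set among genes with at least 10 CPM in the higher harvest, no overlap between libraries and under 10% shared reads, conditions that all 4 named changes met. Its level was 0.288, 0.513 and 0.255 CPM in the 10-month replicates, from 24, 25 and 15 reads, against 11.8, 17.4 and 14.6 CPM in the 5-month replicates. It was the single tested gene that all 10-month libraries held under 1 CPM and all 5-month libraries at 10 CPM or above. The log2 fold change was -5.40 ± 0.48 (SE) in edgeR (adjusted p = 3.3e-05). All 23 alternatives called it, 10 of them required for entry to the stricter set, at -5.99 to -5.23. Across the harvests the gene peaked at 5 months, with a mean of 3.46 ± 2.25 CPM in 2-month, 14.6 ± 2.83 CPM in 5-month and 0.352 ± 0.141 CPM in 10-month libraries (SD, n = 3 each). The transcript measures 492 bases, and none of its reads were shared with another gene.

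Ranked by the change in CPM itself, the transcript that gained most among the 412 rises of the stricter set that met these conditions was ID 984549, 1542 bases long. It stood at 3340, 6273 and 5967 CPM in 10-month replicates 1, 2 and 3 and at 1509, 1114 and 2138 CPM in the 5-month replicates. The groups did not overlap, though 10-month replicate 1 was well under the other two, and the log2 fold change was 1.71 ± 0.35 (SE; edgeR, adjusted p = 0.00532). The mean of 2-month libraries was lower still, 505 ± 192 CPM, followed by 1587 ± 516 CPM in 5-month and 5193 ± 1612 CPM in 10-month libraries (SD, n = 3 each). Outside the 10 alternatives that the stricter set required, only edgeR's test against a 2-fold minimum did not call it (adjusted p = 0.208). The range over all its alternatives was 6.4e-06 to 0.208.

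Among the 395 falls of the stricter set that met the same conditions, the transcript that lost most CPM was ID 656300, of 571 bases. Its level was 846, 647 and 905 CPM in the 10-month replicates against 2715, 3045 and 1124 CPM in the 5-month replicates. The 10-month libraries were close together, and 5-month replicate 3 lay nearer to them than to the other 5-month libraries. The log2 fold change was -1.52 ± 0.34 (SE) in edgeR (adjusted p = 0.00962). It was -1.38, -1.26 and -1.85 without 5-month replicates 1, 2 and 3 (edgeR, adjusted p = 0.0397, 0.0466 and 0.00145). The call was lost against a 2-fold minimum (adjusted p = 0.421) and, at a log2 fold change of -1.37, without the libraries rich in the 6 genes (adjusted p = 0.234), within adjusted p of 2.0e-05 to 0.421 over its alternatives. At 2 months the gene stood at 3516 ± 777 CPM (SD, n = 3). Levels of different genes can be set side by side per length, as RPKM. At 10 months ID 656300 had 1144 ± 431 RPKM and ID 984549 had 2652 ± 953 RPKM, and at 5 months they had 4667 ± 2126 and 1191 ± 369 RPKM in the same order (SD, n = 3 each). The order of this pair by mean was thus opposite at the 2 harvests. The pair was chosen as the largest gain and the largest loss in CPM, which favours such a swap. It was not tested.

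**Figure D4:**
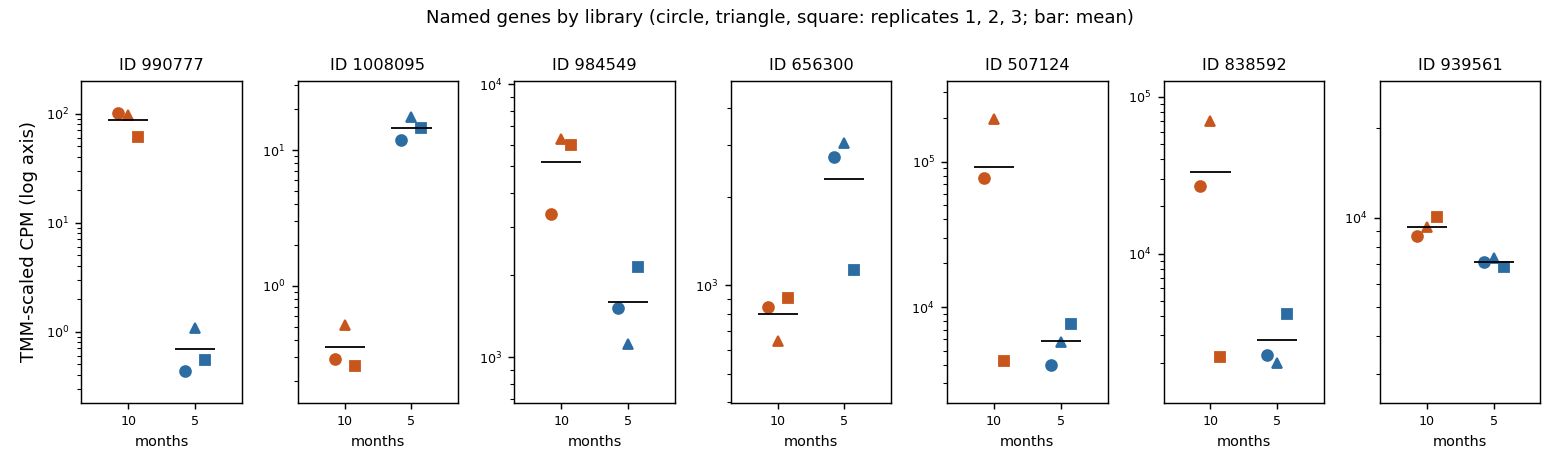
TMM-scaled CPM (y axes, log scale, each gene on its own range) of the 7 named genes in the 10-month (orange) and 5-month (blue) libraries; circles, triangles and squares are replicates 1, 2 and 3 and bars are means. IDs 990777 and 984549 were higher and IDs 1008095 and 656300 lower in all 10-month libraries, while in IDs 507124 and 838592 10-month replicate 3 stands within the 5-month range.

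Of the 5 genes with the highest mean share of reads over the 6 libraries, 3 did not pass the test. ID 507124, the most read of all, took 6.63%, 11.7% and 0.412% of unique reads in 10-month replicates 1, 2 and 3 and 0.479%, 0.687% and 0.882% in the 5-month replicates. It was thus about as low in 10-month replicate 3 as at 5 months, and the log2 fold change was 3.99 ± 1.25 (SE; edgeR, adjusted p = 0.0567), with a 95% interval of 1.17 to 6.82. It was 2.78 without 10-month replicate 2 and -0.47 without all libraries rich in the 6 genes. At 2 months the gene took 2.90%, 10.1% and 1.42% of unique reads in replicates 1, 2 and 3. ID 838592, another of the 6, took 2.33%, 4.20% and 0.211% of reads at 10 months and 0.270%, 0.239% and 0.474% at 5 months, with the same split between libraries. Its log2 fold change was 3.57 ± 1.26 (SE; edgeR, adjusted p = 0.0880), and -0.38 without the rich libraries. Those libraries were chosen by their reads of the 6 genes, so the loss of both rises follows largely from that choice. All 6 genes had log2 fold changes between 3.57 and 4.50 and adjusted p between 0.0376 and 0.0880 (edgeR). Of the 6, 1 was called and counts among the higher genes. ID 939561, which is not one of the 6, was steadier. Its TMM-scaled level was 8671, 9288 and 10062 CPM at 10 months and 7094, 7347 and 6848 CPM at 5 months. The groups did not overlap, yet the log2 fold change of 0.40 ± 0.31 (SE) was not called (edgeR, adjusted p = 0.422; 95% interval -0.29 to 1.08), and with library totals alone it was -0.14.

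The changed genes differed from each other in how they stood at 2 months, which lies outside the contrast. Genes higher at 10 months had median levels of 22.0 CPM at 2 months, 22.6 CPM at 5 months and 47.9 CPM at 10 months. Of these 2005 genes, 984 (49.1%) had a 2-month mean below both later harvests, 940 (46.9%) lay between them and 81 (4.04%) exceeded both. Genes lower at 10 months had medians of 9.92 CPM at 2 months, 12.4 CPM at 5 months and 5.39 CPM at 10 months. In 571 of those 1652 genes (34.6%) the 2-month mean was above both later harvests, in 762 (46.1%) it lay between and in 319 (19.3%) it was below both. Over all tested genes the 2-month mean was above both in 37.7%, between in 26.6% and below both in 35.6%. No test was made, because any comparison with 2 months would share the 5- or 10-month libraries that chose these genes.

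**Figure D5:**
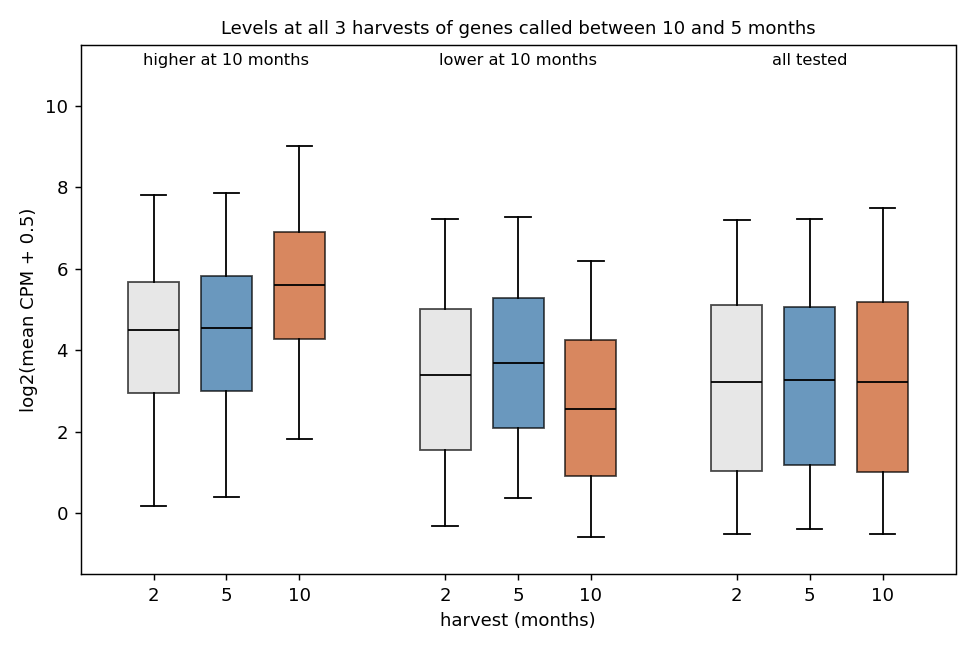
Mean level per gene as log2(CPM + 0.5) (y axis) at 2, 5 and 10 months (x axis) for genes higher at 10 than at 5 months, genes lower, and all tested genes; boxes span the middle 50% with the median as a line, and whiskers run from the 5th to the 95th percentile. Medians of the higher genes were 22.0, 22.6 and 47.9 CPM in the order of the harvests, and of the lower genes 9.92, 12.4 and 5.39 CPM.

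The higher genes gained a large part of the pool. Together they took 27.4%, 34.7% and 28.0% of unique reads in 10-month replicates 1, 2 and 3, against 15.6%, 15.3% and 17.1% in the 5-month replicates. The lower genes took 2.63%, 1.60% and 2.94% at 10 months and 7.43%, 7.996% and 6.97% at 5 months. These genes were chosen by the same contrast, so the sums only describe how much of the pool the calls cover. Reads of tested genes without a call made up 70.0%, 63.7% and 69.0% at 10 months and 76.9%, 76.7% and 75.9% at 5 months.

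Per length, the genes that rose had the higher median level over the 6 libraries. The median of mean RPKM over the 6 libraries was 24.6 for the higher genes, 7.56 for the lower genes and 7.60 for all tested genes. At 5 months alone, in CPM, the median was 22.6 for the higher genes, 12.4 for the lower genes and 9.09 for all tested genes. In the stricter set it was 16.9 CPM for rises and 17.9 CPM for falls at 5 months, so rises were not the more abundant there. Among the 100 genes with the highest mean RPKM, the lowest at 1033 RPKM, 24 were higher at 10 months, 72 had no call and 4 were lower, beside 9.94% higher and 8.19% lower among all tested genes. The RPKM medians and this ranking include the 10-month values that also decided the calls. The 100 highest transcripts by RPKM at 10 months and the 100 highest at 5 months had 80 genes in common. With 54.8% of all calls upward under TMM and 41.1% under upper-quartile scaling, these counts hold for TMM.

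Transcript length, which can be read back from the deposited RPKM, varied with the share of calls. The median length was 1310 bases for higher genes, 1212 for lower genes and 1107 for all tested genes. Of 4 length classes with about equal numbers of genes, the shortest, up to 714 bases, had 5.68% higher and 5.74% lower. In the third, from 1107 to 1626 bases, 12.96% were higher and 9.39% lower. In the longest, above 1626 bases, 12.1% were higher and 9.42% lower. Level moved with length, with a median of 2.09 CPM in the shortest, 12.9 CPM in the third and 21.4 CPM in the longest class. The median SE of the log2 fold change was 0.34, 0.23 and 0.21 in the same order. Among genes of 10 to 100 CPM the shares were 10.95% higher and 6.80% lower in the shortest class. They were 17.9% and 9.22% in the third and 14.1% and 9.27% in the longest. Median SEs were 0.22, 0.19 and 0.19 in that order. From the third to the longest class the share of higher genes thus fell again, while that of lower genes hardly moved. Whether length itself had a part was not tested.

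Genes with many shared reads were a minority among the calls, as among all tested genes. No shared read at all was counted for 49.6% of genes called higher, 52.7% of those called lower and 52.2% of all tested genes. More than 10% of reads were shared in 129 of the higher genes (6.43%) and 130 of the lower genes (7.87%), against 8.31% of all tested genes. In the stricter set this held for 49 rises (9.48%) and 44 falls (6.78%). Counting total in place of unique reads gave 2005 higher and 1643 lower genes, and 97.7% of the original calls were made again. The levels of near-identical genes remain uncertain, but few calls turned on how shared reads were counted.

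A level of at least 1 CPM in all 10-month libraries and under it in all 5-month libraries was seen in 80 genes, 60 of them called higher. The opposite pattern was seen in 203 genes, 123 of them called lower, where 9.94% of all tested genes were called higher and 8.19% lower. Genes at either side of a 1 CPM limit can lie close to it, and the same levels that sorted these genes also decided the calls. Genes without a read in all 5-month libraries but with reads in all 10-month libraries numbered 27, with at most 16 reads summed over the 10-month libraries, and none had enough reads to be tested. The reverse was seen in 32 genes, with at most 48 reads summed over the 5-month libraries, of which 1 was tested and called lower. At 3 reads, the floor lay between 0.0311 and 0.0495 CPM in the 10-month libraries and between 0.0384 and 0.1004 CPM in the 5-month libraries, before TMM scaling and for counting error only.

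The absence of a call did not always mean a well measured absence of difference. Of 16511 genes without a call, 9846 (59.6%) had a 95% interval of the log2 fold change within -1 and 1, so that a 2-fold difference lay outside it. A further 931 genes without a call had an estimate of 2-fold or more, with a median SE of 0.60 and a median level of 0.442 CPM, where the median SE of all tested genes was 0.25. They were not all rare, since IDs 507124 and 838592 are among them.

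Within a harvest most genes were steady. The ratio of the highest to the lowest of 3 libraries, on CPM + 0.5, had a median of 1.30 at both harvests over 16500 genes of at least 1 CPM. It reached 2-fold in 934 genes (5.66%) at 10 months and in 913 (5.53%) at 5 months, and 4-fold in 54 genes (0.327%) at 10 months and 104 (0.630%) at 5 months. Replicate 2 was the highest library in 42 of the 54 at 10 months and in 57 of the 104 at 5 months. Over all 20168 tested genes it was the highest in 7229 at 10 months and in 6231 at 5 months. Of these variable genes, 20 of the 54 and 11 of the 104 were called between the harvests, against 18.1% of all tested genes. In 7 of the 2005 higher genes a single 10-month library held over 66.7% of the 10-month level.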

How the data were processed

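Total RNA of 9 mycelium libraries was sequenced on an Illumina instrument, per the labels' protocols. The authors deposited, per the file headers, counts of reads unique to a gene, counts of all its reads, and RPKM. Aligner, build and annotation: not given in the sources used here. Total reads divided by RPKM and column sum gave whole-number lengths, within 0.01 bases, for all 25486 genes with reads, so the deposited RPKM is scaled to total gene reads.

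For the tests on unique reads, edgeR 4.0.16 was run in R 4.3.3 (TMM, filterByExpr, robust quasi-likelihood), all 9 libraries in one fit with 6 residual degrees of freedom, contrast 10 minus 5 months, and checked on simulated data. The SE is the log2 fold change over the square root of F. Replicates are from separate vessels, per the labels. Alternatives included DESeq2 1.42.0 and limma 3.58.1. Named genes: the largest rise and fall, then the largest CPM gain and loss, among stricter-set genes with at least 10 CPM, no overlap and under 10% shared reads (412 rises, 395 falls); and uncalled genes among the 5 most read. The 6 co-varying genes correlate above 0.95 with the most read gene on log2(CPM + 0.5). Comparison, rules and lists were chosen with earlier results of these data known.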

Additional observations from a re-analysis of the deposited data

How the results depend on the processing

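The number of changed genes stayed within 1.5 times of 3657 under RLE and upper-quartile scaling, both other low-count filters, DESeq2, limma voom, the 6 compared libraries alone, total reads, thinning and omission of the 6 abundant genes. It was 6110 (584 higher, 5526 lower) with library totals alone, 421 (257 and 164) against a 2-fold minimum, and 797 (557 and 240) without the 3 libraries rich in those 6 genes, which leaves a single 10-month library. Leaving out each of the 9 libraries gave 2063 to 3982 changed genes, 1173 to 2142 higher and 859 to 1840 lower. The cause of this range was not tested. With the replicate number as a block 2581 genes were called (1477 higher, 1104 lower), and no named gene gained or lost its call. The numbers do not pair the vessels: same-numbered libraries of both harvests had deviations correlated at 0.07, -0.16 and -0.11, and none correlated best with its own number. The difference in genes that hold 50% of reads ran from -573 to -312 when single libraries were left out. Without the rich libraries the log2 fold changes of IDs 507124 and 838592 were -0.47 and -0.38, opposite to the full fit. Those libraries were chosen by their reads of the 6 genes, so the loss of these rises follows largely from that choice. Library totals alone turned the log2 fold change of ID 939561 from 0.40 to -0.14, while the median of all tested genes moved from -0.03 to -0.57. IDs 507124 and 838592 were called by DESeq2 (adjusted p = 0.0012 and 0.0083) and by some other fits, within 0.0012 to 0.650 and 0.0083 to 0.768 over their alternatives. The part of depth in genes without a call was not tested beyond thinning.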
